A study of Mus musculus with 19 samples.

Results

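Matched humanized hotspots are positions at which mouse PRDM9 with human zinc fingers directed DMC1-bound breaks to both homologs of a hybrid mouse. They were selected on measured values of the hybrid Hum/SPRT. A member lies on an autosome, is attributed to the humanized allele and takes from 25 to 75% of its DMC1 reads from the B6 chromosome, ends included. The rule found 1429 hotspots. They are 31.9% of the 4485 autosomal hotspots of the humanized allele and 9.09% of all 15727 autosomal hotspots of that library. The 5 hotspot tables of the study hold 74327 hotspots together.

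PRDM9 is a zinc finger protein of early meiosis that binds particular DNA sequences and places H3K4me3 on the nucleosomes beside them. Some of the marked positions are then cut by SPO11, and DMC1 coats the resected single-stranded ends until they are repaired from a homolog. When PRDM9 also binds the uncut homolog at the same position, the break finds its partner there more readily, which is why hotspots cut on both homologs are of interest in hybrids.

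The study asked whether moving PRDM9 to sites that are intact on both homologs restores chromosome pairing in sterile hybrids. Hum/SPRT males were the offspring of C57BL/6J (B6) females heterozygous for a Prdm9 allele whose zinc fingers are replaced by those of human PRDM9, crossed with SPRET/EiJ (SPRT) males of Mus spretus. They carry the humanized allele from the B6 side and the SPRT allele from the other, and whole testes of adult males, analysed at 10 weeks of age, were used. DMC1 SSDS gave 1 library and H3K4me3 ChIP-seq gave 3 ChIP and 3 input samples, labelled replicates 1, 1b and 2, and whether 1b is another mouse is not stated. STUS/Hum, the humanized hybrid with the STUS/Jpia strain of M. m. musculus, is used below as a second cross, also with 1 DMC1 library from adult testis. B6/SPRT, CAST/SPRT and STUS/B6 lack the humanized allele. CAST/SPRT carries the CAST allele in its place, and the other pair carries the B6 allele.

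Whole testis mixes meiotic with other cells, so fewer meiotic cells and less DMC1 or H3K4me3 per cell cannot be told apart. The table gives 1 H3K4me3 value for each hotspot, taken here as pooled over the samples, which is not stated. The number of mice behind a library is not stated either. With 1 DMC1 library, no value has a replicate error and no test was made. Hotspots are not replicates. Spread is given over hotspots or over the 19 autosomes, and Wilson intervals (95%) cover counting error only. DMC1 signal is the strength given by the authors' caller, in arbitrary units, and the depth of that library and the reads behind its B6 percentages are unknown. DMC1 remains until repair, so the number of breaks and the time to repair cannot be told apart in it. A homolog is called cut here from the share of DMC1 reads it gave. H3K4me3 is deposited as enrichment over input. Summed over the members, ChIP coverage was 610285 and input coverage 37077, with a median of 390 and 26 for each hotspot. A member had a median of 590 H3K4me3 reads that carry a SNP, and at least 30.

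No genome of the mouse was used, so the sequence at most members is not shown. RefSeq promoter windows, 300 bases around a gene start in GRCm38.p6, overlap 10 members, and at 3 of these the window holds the hotspot center. These windows were picked once the tables had been seen. Those with a center are given first because they are the DNA under the break site itself. The fourth window is shown for its match, in capitals, to the 13-base motif of human hotspots, CCNCCNTNNCCNC, searched on both strands.

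Sumo3, chr10:77613459-77613758, plus strand: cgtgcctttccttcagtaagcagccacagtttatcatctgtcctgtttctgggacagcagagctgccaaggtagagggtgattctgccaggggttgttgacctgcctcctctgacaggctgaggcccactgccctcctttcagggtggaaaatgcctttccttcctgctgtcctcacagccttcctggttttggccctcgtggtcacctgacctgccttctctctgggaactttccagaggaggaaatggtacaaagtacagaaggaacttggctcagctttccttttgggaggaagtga

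Gm35850, chr8:90740720-90741019, minus strand: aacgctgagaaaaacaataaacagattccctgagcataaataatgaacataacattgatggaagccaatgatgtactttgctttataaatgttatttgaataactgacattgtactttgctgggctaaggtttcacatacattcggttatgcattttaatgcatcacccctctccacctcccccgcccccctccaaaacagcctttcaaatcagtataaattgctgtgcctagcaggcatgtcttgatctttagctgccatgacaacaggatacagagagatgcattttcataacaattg

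Gm31939, chr12:29937256-29937555, minus strand: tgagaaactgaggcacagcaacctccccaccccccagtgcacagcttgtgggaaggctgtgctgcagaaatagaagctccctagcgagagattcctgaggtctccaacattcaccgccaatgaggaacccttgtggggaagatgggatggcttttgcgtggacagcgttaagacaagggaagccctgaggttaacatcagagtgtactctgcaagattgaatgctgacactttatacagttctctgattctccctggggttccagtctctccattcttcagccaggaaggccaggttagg

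Pxdn, chr12:29937786-29938085, plus strand: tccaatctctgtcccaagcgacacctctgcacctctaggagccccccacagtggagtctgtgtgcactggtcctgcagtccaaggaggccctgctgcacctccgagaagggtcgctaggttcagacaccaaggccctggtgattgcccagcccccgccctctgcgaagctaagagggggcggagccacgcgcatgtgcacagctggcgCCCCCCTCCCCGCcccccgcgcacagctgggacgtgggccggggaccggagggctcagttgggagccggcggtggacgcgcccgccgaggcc

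The window of Sumo3, a gene of the ubiquitin-like SUMO family, holds the center of a member with a DMC1 signal of 86.4 and an H3K4me3 enrichment of 17.4. At that position 63.8% of the DMC1 reads and 58.1% of the H3K4me3 reads came from B6. The member in the window of Gm35850 had a signal of 65.8 and an enrichment of 10.3, with 33.3% of DMC1 and 49.0% of H3K4me3 from B6. The third, in a window of Gm31939, had more H3K4me3 and less DMC1, with an enrichment of 22.3 and a signal of 48.9. Its B6 percentages were 40.8 for DMC1 and 62.8 for H3K4me3. None of the windows that hold a center contains the motif. The match shown lies 491 bp from the center of the third member, in overlapping windows of Pxdn and Gm31939. Of all 31396 autosomal promoter windows, 6.35% contain the motif on either strand, and 2 of the 13 windows that overlap a member do. Both hold the same match, so it concerns 1 of the 10 members with such a window. These letters say nothing about binding.

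More members were cut mainly on SPRT than mainly on B6. The B6 contribution to DMC1, which chose the members, had a median of 45.7% and quartiles of 35.5 and 57.1%. It was under 50% at 854 members (59.8%, interval 57.2 to 62.3%) and over 50% at 555, with 20 at exactly 50%. This lean holds only within the limits of the rule. All 3302 autosomal humanized hotspots with a DMC1 fraction leaned the other way, with a median of 55.6% from B6. Of these, 1259 had over 75% from B6 and 614 under 25%. Between 40 and 60% there were 636 members. From the lowest to the highest of 5 equal bands of B6 contribution, the number of members went 342, 346, 331, 246 and 164. The median by autosome ranged from 39.7% on chromosome 16 to 52.2% on chromosome 6. The limits cut through a continuous distribution. There were 141 humanized hotspots from 20% up to the lower limit and 158 from 25 to 30%, with median DMC1 signals of 33.9 and 32.9. At the upper limit 89 lay from 70 to 75% and 91 above it up to 80%, with signals of 25.8 and 21.7.

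Exactly at 25% there were 13 members and exactly at 75% there were 7, of median signal 20.5 and 19.5. Just above the lower limit lay a hotspot within Efcab14 (chr4:115771668-115772668) with 25.1% of DMC1 and 58.2% of H3K4me3 from B6. Just below it, and so outside, lay a hotspot within the sodium channel gene Scn10a (chr9:119710250-119711250) with 24.8% and 52.4%. At the upper end the last member below 75% was within Gm4894 (chr9:49255748-49256748) with 74.7% of DMC1 and 75.5% of H3K4me3. The first beyond it was within Reln, the gene of the extracellular matrix protein reelin (chr5:22152472-22153472), with 75.2% and 67.1%.

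**Figure D1:**
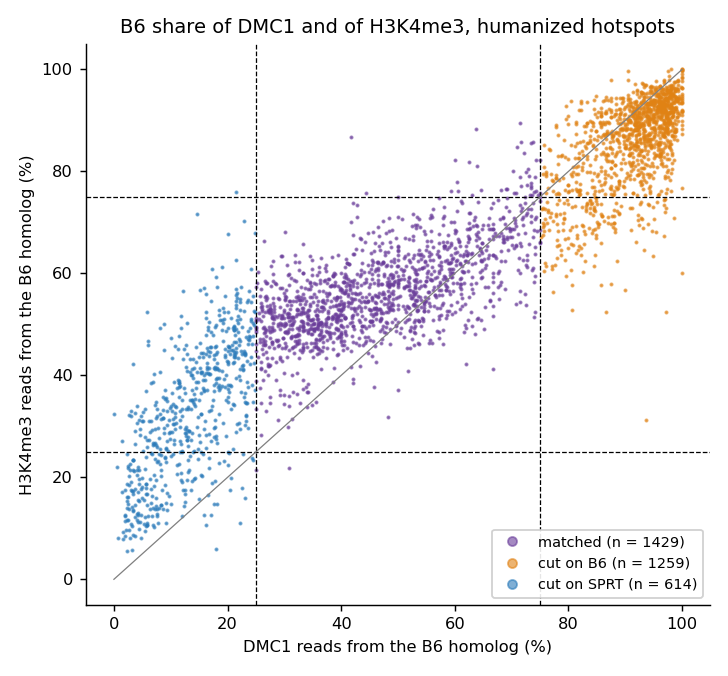
Percent of H3K4me3 reads against percent of DMC1 reads that carried the B6 variant, each point an autosomal humanized hotspot of Hum/SPRT with a DMC1 fraction (1429 matched, 1259 cut on B6, 614 cut on SPRT). Dashed lines mark 25 and 75%, the grey line equal values; most matched points lie above it and between the horizontal limits.

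H3K4me3 reads were also drawn from both homologs at nearly all members. This assay did not choose them. At 1386 of 1429 members, 97.0% (interval 96.0 to 97.8%), the B6 share of H3K4me3 lay from 25 to 75%, where 55.1% of all autosomal hotspots of the library with at least 10 reads did. The remainder of the humanized hotspots with a DMC1 fraction were one-sided, 1259 with over 75% of DMC1 from B6 (cut on B6) and 614 with under 25% (cut on SPRT). Of hotspots cut on B6, 13.3% had a matched H3K4me3 share, and of hotspots cut on SPRT 69.5%. Within these limits the sides were unequal: where DMC1 favoured SPRT, H3K4me3 was often still drawn from both homologs. The median of H3K4me3 minus DMC1 in B6 share was 19.9 points at hotspots cut on SPRT. At hotspots cut on B6 it was -4.58, and at members 9.70. The limits were not adjusted for a lean of H3K4me3 reads towards B6, and its part in the contrast was not tested. Of humanized hotspots without a DMC1 fraction, 84.0% of 1154 with at least 10 reads had a matched H3K4me3 share.

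The H3K4me3 share of members lay above 50% at most of them. Its median was 55.3%, with quartiles of 50.5 and 61.7% and an SD of 8.90 percentage points. It exceeded 50% at 1094 members (76.6%) and the DMC1 share of the same hotspot at 1167 (81.7%, interval 79.6 to 83.6%). The median of H3K4me3 minus DMC1 was 9.70 points at members. It was 8.97 at matched hotspots of the SPRT allele, 4.02 over all humanized hotspots and -0.86 over all autosomal hotspots. The DMC1 share that is subtracted also sets the classes, so the last values, which include one-sided hotspots, cannot show whether the offset is particular to matched hotspots. All autosomes had a median H3K4me3 share above 50%, from 53.7% on chromosome 4 to 59.7% on chromosome 6. A share over 50% was also found at 73.1% of all autosomal hotspots of the library, and reads were aligned to a genome of the B6 strain. The part of alignment in this excess over 50% was not tested.

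Across the members the B6 shares of DMC1 and H3K4me3 rose together, with Pearson's r of 0.656 and Spearman's rho of 0.645 (n = 1429 hotspots of the same testes, which share the SNPs). The rule limits the DMC1 share to 25 to 75%, so these values describe only that range. In the band of 25 to 35% of DMC1 from B6 the median H3K4me3 share was 50.2%, in the band of 45 to 55% it was 56.5%, and in the band of 65 to 75% it was 68.0%. The bands are set on DMC1, so the spans of both assays cannot be compared from them. Members were also split by DMC1 signal into 4 groups of equal size. The correlation was alike in the strongest (r of 0.636, n = 357) and the weakest group (0.640, n = 358), and the SD of the difference was 9.34 and 11.1 points.

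At 43 members the H3K4me3 share fell outside 25 to 75%, at 41 of them on the B6 side and at 2 on the SPRT side. Of these 41, 30 lay in the band of 65 to 75% of DMC1 from B6. For 14 of the 43 the Wilson interval of the H3K4me3 share lay wholly outside as well. That interval was 7.83 points wide at the median member and covers counting error only. SNP-carrying reads outnumbered the ChIP coverage 1.58 to 1 at the median, so it may be too narrow. In the 4 groups by DMC1 signal, from weakest to strongest, 22, 8, 10 and 3 members were outside.

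The widest 3 differences between the assays, among members with at least 100 reads, were all towards B6 in H3K4me3. A member within Epp13 (chr7:6257680-6258680) had 26.5% of DMC1 and 66.3% of H3K4me3 from B6 (interval 59.2 to 72.7%). Another (chr6:37641695-37642695), outside protein-coding genes and the stronger, with a signal of 91.6, had 30.1% and 68.2% (interval 65.1 to 71.1%). The last of the 3, within Ccdc149 (chr5:52409064-52410064), had 25.4% and 60.2%.

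The DMC1 signal of members had a median of 33.6, quartiles of 20.7 and 64.1, and a range of 7.65 to 422. Hotspots cut on B6 had a median of 29.8, those cut on SPRT 39.2, and those without a fraction 37.0. Against all 1873 one-sided hotspots, with a median of 32.7, the log2 ratio was 0.04 and its sign changed among autosomes (above 0 on 12 of 19, SD 0.19). It depended on the limits: with 10 to 90% in place of 25 to 75%, it turned to -0.37. Against hotspots cut on B6 the members' median was higher on 16 of 19 autosomes, and against those cut on SPRT on 6. A few members held much of the signal: the strongest 143 carried 33.4% of it. Members held 46.7% of the summed signal of humanized hotspots with a fraction. These values come from the library that chose the members and are descriptive.

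**Figure D2:**
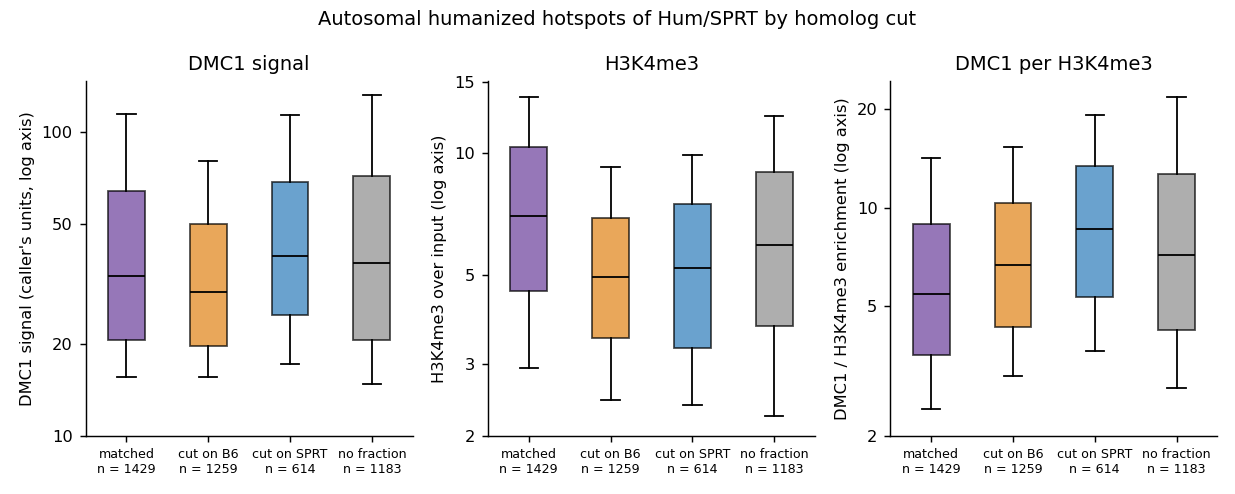
DMC1 signal, H3K4me3 enrichment and their ratio at autosomal humanized hotspots of Hum/SPRT, on log axes. Boxes span the quartiles with the median as a line, and whiskers the 10th to 90th percentile of hotspots. Matched hotspots have the highest median enrichment (6.99) and the lowest median ratio (5.45) of the 4 groups.

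H3K4me3 enrichment was higher at members than at one-sided hotspots. The median was 6.99 at members, 4.94 at hotspots cut on B6, 5.21 at hotspots cut on SPRT and 5.93 where no fraction was given. The log2 ratio of members to all one-sided hotspots was 0.48 (SD over autosomes 0.16) and was above 0 on 19 of 19 autosomes, from 0.22 on chromosome 9 to 0.86 on chromosome 4. With limits of 10 to 90% it was 0.24. Enrichment of members ran from 0.382 to 26.5, with quartiles of 4.56 and 10.3. Members made up 28.7% of the humanized hotspots with a fraction in the lowest of 5 equal-sized bins of enrichment and 69.1% in the highest, rising at each step between through 31.8, 39.2 and 47.4%. They held 51.9% of the summed enrichment of those hotspots while making up 43.3% of their number.

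H3K4me3 was also split by homolog, with the enrichment multiplied by the share of each. The B6 homolog had a median of 3.95 at members and 4.32 at hotspots cut on B6. For the SPRT homolog the values were 3.01 at members and 3.44 at hotspots cut on SPRT. On the homolog that was cut, then, a member was marked slightly less than a one-sided hotspot, on 14 of 19 autosomes for B6 and 15 for SPRT. The opposite homolog made up the total. Hotspots cut on B6 had 0.501 on SPRT, and hotspots cut on SPRT had 1.496 on B6. The classes are set by the B6 share of DMC1, which rose with that of H3K4me3 among members. Both directions are therefore favoured by the choice. Within the members the mark on SPRT fell from 3.28 in the lowest band of DMC1 from B6 to 1.92 in the highest, while that on B6 was 3.36 and 4.07.

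DMC1 signal rose with H3K4me3 among members but with wide scatter. On log2 scales the correlation was 0.510 (Pearson) and 0.541 (Spearman) over 1429 hotspots, and Pearson's r was 0.414 at hotspots cut on B6 and 0.480 at those cut on SPRT. Median enrichment went from 4.29 in the weakest of the 4 groups by DMC1 signal through 6.29 and 7.76 to 10.4 in the strongest. Median signal in the same groups was 16.4, 26.3, 44.97 and 103. Signal per enrichment was 3.64 in the weakest and 10.9 in the strongest of these groups. The direction turned when members were grouped by enrichment: from the lowest to the highest of the 5 bins it was 8.21, 5.53, 5.05, 4.88 and 4.96. Each grouping favours its own direction, so neither shows which of the pair grew faster.

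DMC1 signal per enrichment was lower at members than at one-sided hotspots, except among the most marked. This ratio is not matched for H3K4me3, which was higher at members. It had a median of 5.45 at members, with quartiles of 3.54 and 8.93, and 7.23 at one-sided hotspots. The log2 ratio was -0.41 (SD over autosomes 0.19). It was below 0 on 19 of 19 autosomes and ranged from -0.76 on chromosome 14 to -0.03 on chromosome 16. Hotspots cut on SPRT stood highest, at 8.61, and those cut on B6 at 6.66. Members were below the former on all 19 autosomes and above the latter on 3. Where no fraction was given the median was 7.17.

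Matched for H3K4me3, the difference was present in all but the top bin, which holds more members than any other. In the same 5 bins, the log2 ratio of signal per enrichment was -0.22, -0.34, -0.35 and -0.36 in the lower 4. In the top bin, with 457 members and 204 one-sided hotspots of enrichment above 9.33, it was 0.02. Median signal there was 62.1 at members and 55.9 at one-sided hotspots, whereas in the bin below it was 38.3 and 47.1. Hotspots were listed only when called from DMC1, so positions with weak DMC1 are missing from both groups, whatever their H3K4me3. The part of this in the ratio was not tested.

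Taken homolog by homolog, a calculation chosen after seeing the data, the ratios were as follows. DMC1 per H3K4me3 on the B6 homolog was 4.43 at members and 7.20 at hotspots cut on B6, a log2 ratio of -0.70. On the SPRT homolog it was 6.65 at members and 11.3 at hotspots cut on SPRT, a log2 ratio of -0.77. The classes are defined by the B6 share of DMC1, which also enters these ratios. The direction is therefore favoured by the choice and adds no support to the ratio over both homologs.

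Matched hotspots of the SPRT allele in the same library, 2266 of them, serve as a second comparison. They had a median DMC1 signal of 42.5 and an enrichment of 5.45, so the humanized members had less DMC1 signal and more H3K4me3. The humanized members lay below on 16 of 19 autosomes for signal and above on 18 for enrichment. Signal per enrichment was 9.06 at the SPRT-allele hotspots, higher than at the members on all 19 autosomes, a log2 ratio of -0.73. The share with matched H3K4me3 was similar, 96.5% (interval 95.7 to 97.2%), and the median B6 share of H3K4me3 was 58.0%. The source of this difference was not tested.

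Among single hotspots, the strongest 20 members were chosen by DMC1 signal. The first was 422 (chr10:17564820-17565820) within the lncRNA gene Gm32543, with 39.9% of DMC1 and 56.7% of H3K4me3 from B6 at an enrichment of 6.98. The next lay within Kdm3b, a histone H3K9 demethylase gene (chr18:34809984-34810984), with a signal of 368 and an enrichment of 13.7. Mdn1, which encodes an ATPase of ribosome assembly, held the third (chr4:32726367-32727367), of signal 356 and enrichment 8.44. The fourth (chr3:11006979-11007979), of signal 332, was far from protein-coding genes, 567 kb from Snx16. Next came a hotspot within Zswim6 (chr13:107807968-107808968), with a signal of 318 and 31.3% of DMC1 from B6. Signal per enrichment differed among these, from 26.8 in Kdm3b to 60.4 in Gm32543.

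The next 5 had signals of 303 to 269. They lay 20.2 kb from Sdcbp (chr4:6345007-6346007), within Cfap20dc (chr14:8624536-8625536), within Sclt1 (chr3:41666157-41667157), 45.5 kb from Ebf2 (chr14:67475915-67476915) and 1.68 kb from Slc2a9 (chr5:38504324-38505324). Cfap20dc was the only member of the 10 whose H3K4me3 share was past 75%, at 75.4% (interval 72.4 to 78.1%), with 63.0% of DMC1 from B6. Of the next 10, centers lay within Lats2, a kinase gene of the Hippo pathway, Hdac2, a histone deacetylase gene, Mrtfb, Clint1, the transcription factor gene Zeb2, Ski and the lncRNA gene Gm41077. Among all 20, 15 had under 50% of DMC1 from B6 and 17 had over 50% of H3K4me3 from B6.

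High H3K4me3 did not go with high DMC1 signal in every case. The largest enrichment, 26.5, lay within Igsf21 (chr4:140101535-140102535), where the DMC1 signal was 29.3, below the median of members. Signals at the following 4 were 184 (chr5:134867512-134868512), 166 within the cadherin gene Cdh4 (chr2:179526350-179527350), 48.7 within the myosin gene Myo15 (chr11:60502686-60503686) and 101 within the transporter gene Abcc6 (chr7:46007880-46008880). Their B6 shares of H3K4me3 were 54.2, 55.6, 54.3 and 65.3%. In Cdh4 25.8% of DMC1 reads came from B6, close to the lower limit.

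Both terms contributed to the extremes of signal per enrichment. The highest, 85.8, was a hotspot 6.48 kb from Lztfl1 (chr9:123723609-123724609), with a signal of 141 over an enrichment of 1.64 and ChIP coverage of 113. Next came Gm32543 at 60.4, then a member of chromosome 14 far from protein-coding genes (chr14:106603697-106604697) at 53.7. They were followed by the fourth strongest member at 52.0 and the member in Hdac2 at 46.2. The lowest was in Plekhh3 (chr11:101168092-101169092), at 0.772, with a signal of 13.3 over an enrichment of 17.2. The others at the low end had 0.947 (chr7:36993112-36994112), 1.01 within Ppp2r5e, a regulatory subunit gene of phosphatase 2A (chr12:75548703-75549703), 1.04 within Ceacam9 (chr7:16723667-16724667) and 1.07 within the lncRNA gene Gm32652 (chr1:164896495-164897495). Signals at these 5 were 7.65 to 14.9, while their enrichment was 8.08 to 17.2.

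Members were found on all 19 autosomes, from 38 on chromosome 16 to 116 on chromosome 2, with a median of 74. Their number rose with the length of the autosome that hotspots span (Pearson's r of 0.822 across the 19). For each 10 Mb of that span there were 4.01 members on chromosome 16 and 8.30 on chromosome 19, the shortest, where all humanized hotspots were also densest, at 29.7. The matched share of humanized hotspots with a fraction was 43.3% (interval 41.6 to 44.97%). It was lowest on chromosome 16 at 31.7% (interval 24.0 to 40.4%) and highest on chromosome 12 at 51.7% (interval 43.7 to 59.6%). Those intervals do not overlap, but chromosomes were picked here as the extremes.

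**Figure D3:**
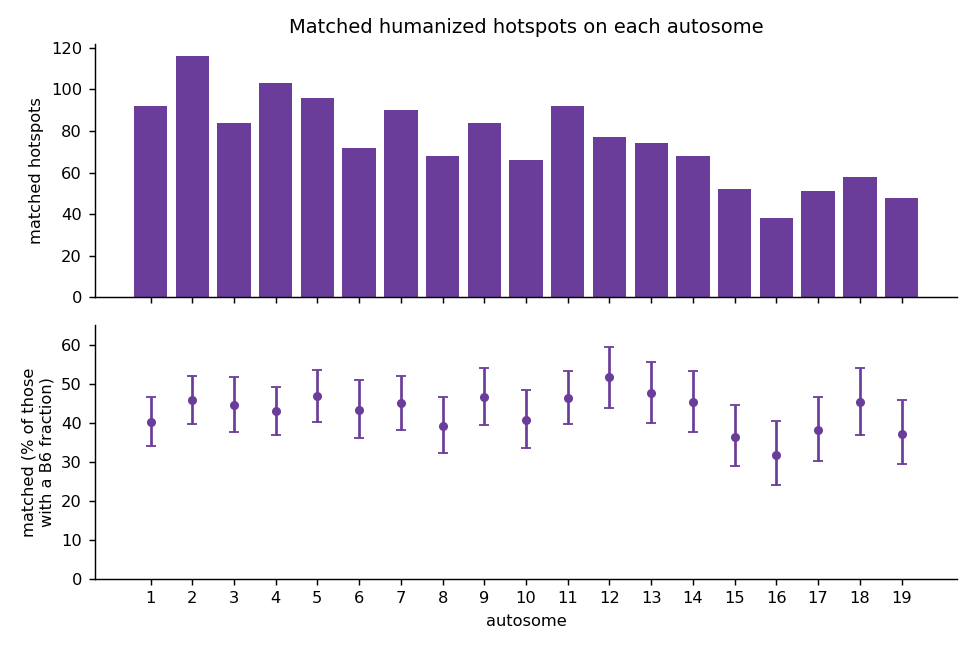
Number of matched humanized hotspots on each autosome of Hum/SPRT (bars, from 38 to 116) and their percent among humanized hotspots with a B6 fraction (points, 31.7 to 51.7%). Error bars are 95% Wilson intervals, for counting error only.

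Strength varied less from autosome to autosome than number, which rose with the length that hotspots span. Median DMC1 signal ran from 28.5 on chromosome 10 to 42.1 on chromosome 13, and median enrichment from 5.76 on chromosome 19 to 9.21 on chromosome 11. Signal per enrichment was lowest on chromosome 11, at 4.56, and highest on chromosome 3, at 7.84. The share with matched H3K4me3 stayed within 93.8 and 100%.

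Along the chromosomes members lay in every part. With the span of hotspots cut into 5 equal parts, from the centromeric end, there were 268, 266, 273, 275 and 347. The last part thus held 24.3% of members, beside 23.7% of all autosomal hotspots and 27.1% of one-sided humanized hotspots. The matched share of humanized hotspots with a fraction was 48.4% in the middle part and 40.6% in the last. Median DMC1 signal of members was 36.5 in the first part and 31.9 to 34.5 in the others.

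Neighbouring members were 855 kb apart at the median, with quartiles of 319 and 2040 kb over 1410 distances. All humanized hotspots were 271 kb apart and one-sided ones, which are more numerous, 676 kb. Distances were uneven: 143 (10.1%) were under 100 kb, 23 under 10 kb and 108 (7.66%) over 5 Mb, up to 21.9 Mb on chromosome 14. By autosome the median distance was 546 kb on chromosome 4 and 1391 kb on chromosome 16. The nearest humanized hotspot of any kind was 129 kb from a member at the median, and the nearest SPRT-allele hotspot 71.7 kb. An SPRT-allele hotspot lay within 10 kb of 127 members (8.89%), much as for one-sided humanized hotspots (8.33%).

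**Figure D4:**
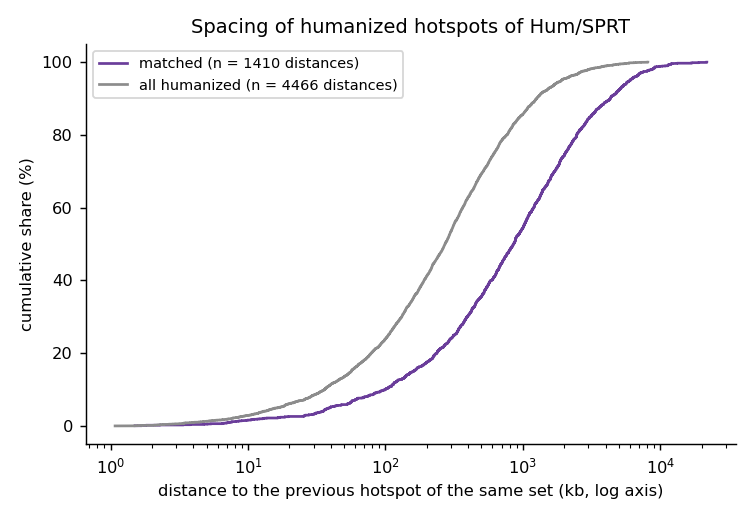
Cumulative distribution of the distance from each hotspot to the previous one of the same set on its autosome, on a log axis, for matched humanized (1410 distances, median 855 kb) and all humanized hotspots (4466 distances, median 271 kb) of Hum/SPRT. The matched curve lies to the right, since matched hotspots are a part of the whole set.

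The closest pair of members lay 1502 bp apart in the lncRNA gene Gm9899 (chr5:30577411-30578411 and chr5:30578913-30579913). They were alike, with DMC1 signals of 76.9 and 71.8, enrichments of 11.7 and 9.83, and H3K4me3 shares of 58.3 and 59.9% from B6. The most isolated member with neighbours on both sides was the one of chromosome 14 named above for its ratio of 53.7, which had no other member within 11362 kb. Its signal was 102 and its enrichment 1.90. The 23 pairs under 10 kb apart differed by a median of 5.76 points in the B6 share of H3K4me3. The 120 pairs from 10 to 100 kb apart differed by 8.18 and the 1267 pairs at 100 kb or more by 8.22. In log2 DMC1 signal the median differences were 0.92, 1.31 and 1.01 in the same order. Whether the reads of the closest pairs overlap cannot be told from the values given.

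Most members lay inside genes and away from gene starts, as did most autosomal hotspots of the library. The center fell within a protein-coding gene at 887 members, 62.1% (interval 59.5 to 64.6%), compared with 58.3% of hotspots cut on B6, 62.5% of those cut on SPRT and 54.9% of all autosomal hotspots. A further 107 lay in a lncRNA gene alone. Gene starts were taken from the RefSeq promoter windows, which do not cover chromosome 18 here and are not complete. Within 1 kb of such a start were 17 of 1371 members, 1.24% (interval 0.776 to 1.98%), where 1.7% of all autosomal hotspots were. Promoters carry H3K4me3 of their own, and these 17 had a median enrichment of 10.3, beside 6.99 for the other 1354. Their DMC1 signal per enrichment was 4.12, against 5.45.

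Of these 17, the pair described here was picked after seeing the values. The strongest was 181 in DMC1 signal, beside the window of Frmd4a, with an enrichment of 14.9 and 49.6% of DMC1 from B6. At the member beside Gm34064 the opposite held, with an enrichment of 18.9 and a signal of 30.9. These were the ends of the range of signal per enrichment at the 17, 12.1 and 1.63. Without hotspots within 1 kb of a start, and without chromosome 18, the log2 ratio of members to one-sided hotspots was still 0.48 for enrichment and -0.41 for signal per enrichment.

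Most members were also hotspots of the humanized allele in the other cross. A humanized hotspot of STUS/Hum lay within 500 bp of 1087 members, 76.1% (interval 73.8 to 78.2%), with 73 bp between centers at the median. Over all autosomal hotspots of Hum/SPRT the share was 20.5%. Among all humanized hotspots it was 70.9% and among one-sided ones 71.8%, so a high share is not particular to the members. The authors assigned alleles through comparison with other mice. The overlap may therefore not be independent, and the part of the assignment in it was not tested. For hotspots cut on B6 the share was 86.6% and for those cut on SPRT 41.5%. The B6 chromosomes are common to both crosses, whereas the other homolog is SPRT or STUS. Few members lay near a hotspot of a library without the humanized allele: 5 for B6/SPRT, 3 for CAST/SPRT and 12 for STUS/B6, under 1% each. One-sided humanized hotspots were also rarely near them (0.427, 0.374 and 1.28%), so this is not particular to the members. The part of the assignment of alleles in it was not tested. Over all autosomal hotspots the shares were 61.5, 34.5 and 1.46%.

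Strong members were found again more often. In the weakest of the 4 groups by DMC1 signal 169 of 358 had a humanized hotspot in STUS/Hum, then 271, 312 and 335 of 357 in the following groups, from 47.2 to 93.8%. Members not found there had a median signal of 19.7 and an enrichment of 4.92, and those found had 41.3 and 7.66. Across the 1087, signal in the crosses was related with Pearson's r of 0.759 and Spearman's rho of 0.719 on log2 scales. The points share the PRDM9 allele and the B6 homolog, and the scaling of the caller's signal between libraries is not stated.

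**Figure D5:**
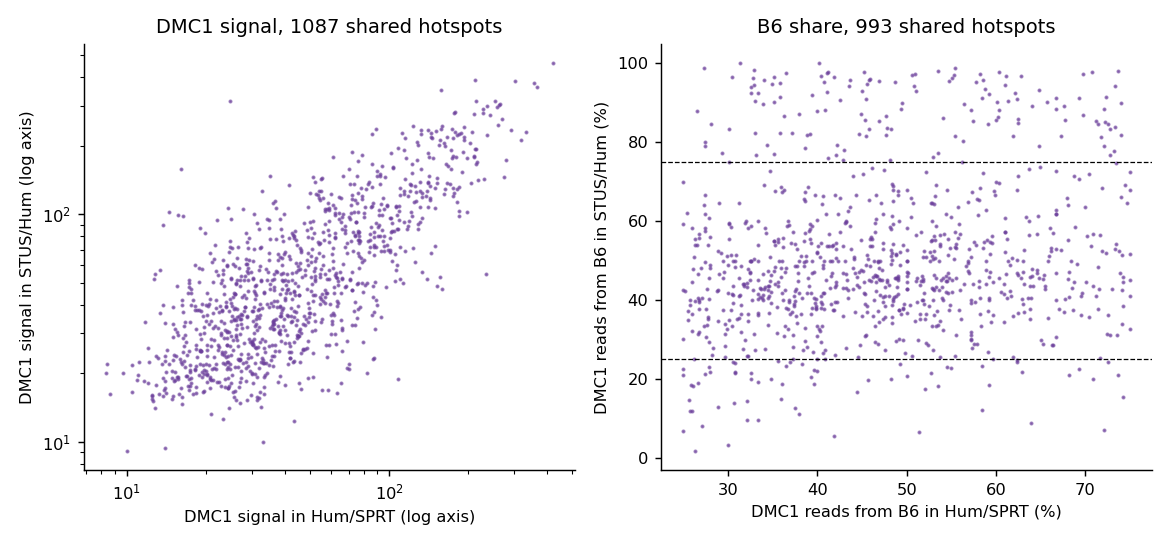
Matched humanized hotspots of Hum/SPRT that have a humanized hotspot of STUS/Hum within 500 bp: DMC1 signal in both crosses on log axes (1087 hotspots) and percent of DMC1 reads from B6 in both (993 hotspots). Dashed lines mark 25 and 75% in STUS/Hum. The B6 share in Hum/SPRT is limited to 25 to 75% by the rule that chose the members.

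Most shared members were also matched in STUS/Hum. Of the 1087, 993 had a B6 share in STUS/Hum, with a median of 46.9% and quartiles of 38.5 and 59.5%. It was matched at 786 of the 993 (79.2%, interval 76.5 to 81.6%), over 75% at 141 (14.2%) and under 25% at 66 (6.65%). Among all humanized hotspots of STUS/Hum with a share, 63.7% were matched. Hotspots cut on B6 in Hum/SPRT were matched in STUS/Hum at 55.7% of 1031, and hotspots cut on SPRT at 42.8% of 243. The 786 that were matched in both crosses are 55.0% of the members and 29.0% of the 2714 matched humanized hotspots of STUS/Hum. Within the members, the B6 shares of the crosses had an r of 0.161 (n = 993). The limits of the rule may lower this value, which was not tested, so it cannot be set against that of signal.

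All 20 of the strongest members had a humanized hotspot in STUS/Hum, and 17 of the 19 with a B6 share there were matched. At the strongest, in Gm32543, the signal was 460 and the B6 share 40.2%, beside 422 and 39.9% in Hum/SPRT. In Mdn1 it was 46.2% in Hum/SPRT and 45.8% in STUS/Hum. The fourth strongest member, near Snx16, was matched in Hum/SPRT at 45.3% and had 85.5% from B6 in STUS/Hum. In Gm41077, picked after its values were seen, the contrast was wider still, with 30.4% and a signal of 233 in Hum/SPRT and 96.6% and 54.7 in STUS/Hum. Abcc6, among the most marked, had 58.2% and 97.3%. The read numbers behind these shares are not given, so how far such differences exceed counting error cannot be told.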

How the data were processed

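Testes of 5 hybrid genotypes were measured in 19 samples, of which the DMC1 library, the 3 ChIP and the 3 input samples of Hum/SPRT and the DMC1 libraries of the other genotypes bear on this report. BWA and mm10 are named in the submitters' processing notes. The authors called hotspots from single-stranded DMC1 fragments and deposited the DMC1 signal and, over the 1000 bp around each center, the coverage of ChIP and input. The deposited enrichment is a ratio of H3K4me3 ChIP to input whose formula is not stated. The authors assigned reads to homologs by SNPs and deposited the B6 fraction of DMC1 and of H3K4me3 reads. The authors also deposited the count of SNP-carrying H3K4me3 reads. The PRDM9 allele of a hotspot was assigned by the authors by comparison with other mice. The remaining 23 value columns (p-values, marks of sharing, H3K4me3 of other genotypes) were not used.

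Medians, percentiles, ratios, distances, Wilson intervals and correlations were computed in pandas 2.3.3 and numpy 2.4.6 under Python 3.11.15 (scipy 1.17.1; figures by matplotlib 3.10.9), with code tested on simulated data. H3K4me3 fractions needed at least 10 reads. Signal or enrichment of a homolog is the value multiplied by its fraction. Genes and promoter windows came from RefSeq tables of GRCm38.p6. Hotspots are named by rule: the 10 strongest by DMC1 signal (genes for the 20 strongest), the 5 largest by enrichment, the 5 largest and 5 smallest by signal per enrichment, the 3 widest differences between B6 fractions with at least 100 reads, the closest pair, the most isolated member and those next to a limit. Promoter windows, members near gene starts and the values of Gm41077 were picked after the data were seen. Members and lists were chosen with earlier results of these data known. Summed over members, ChIP coverage was 610285, input coverage 37077 and SNP-carrying reads 968996; the depth of DMC1 libraries is unknown. SNP-carrying reads exceed ChIP coverage, at a median of 1.58, so Wilson intervals may be too narrow. No test was made, since each genotype has 1 DMC1 library and each hotspot 1 H3K4me3 value. Alternatives changed the limits of the B6 fraction, the least signal, reads, enrichment formula, distances and gene starts.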

Additional observations from a re-analysis of the deposited data

How the results depend on the processing

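Of 39 alternative values for 8 results, 16 were the same, 22 moved and 1 reversed. With limits of 40 to 60% of DMC1 from B6 there were 636 members with 21.9% of the DMC1 signal of humanized hotspots with a fraction (46.7% as reported), a matched H3K4me3 share at 99.4%, a STUS/Hum hotspot at 79.1% and a median spacing of 1885 kb. With limits of 10 to 90% there were 2264 members with 66.0% of the signal, 82.6%, 71.0% and 531 kb. The log2 ratio to one-sided hotspots then reversed to -0.37 for DMC1 signal and moved to 0.24 for enrichment; the cause was not tested. Counts, shares of signal and spacing move by construction, since limits change the number of members. Among hotspots at or above the median signal of the humanized allele there were 710 members, with 98.2% matched in H3K4me3, 90.8% shared with STUS/Hum and a spacing of 1683 kb. The matched H3K4me3 share was 98.1% when weighted by enrichment and 67.0% with limits of 40 to 60% on H3K4me3. Sharing with STUS/Hum was 69.0% within 250 bp and 79.3% for any allele. Spacing to the next humanized hotspot of any kind was 266 kb. DMC1 per H3K4me3 had a log2 ratio of -0.70 on the B6 homolog, against hotspots cut on B6. It was -0.77 on the SPRT homolog, against hotspots cut on SPRT. These alternatives were chosen after seeing the data and changed both the homolog and the comparison group. Over both homologs, and not counted among the alternatives, it was -0.29 and -0.66 against the same groups. The B6 share that defines the classes also enters the values of a homolog, and its part was not tested. The other 6 counted alternatives of DMC1 per H3K4me3 were the same. Of these, the median over 5 bins of enrichment was -0.34, with 0.02 in the top bin. The causes of the other moves were not tested. Alternatives on the human motif near hotspot centers were not run, since no genome was given, and the one on gene starts lacks chromosome 18. No paired analysis was possible because the results come from no test and the H3K4me3 values carry no replicate numbers. Unknown DMC1 read numbers limit each B6 percentage.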
